A study of Mus musculus with 9 samples.

Results

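The interferon regulatory factors (IRFs) and the signal transducers and activators of transcription (STATs) are the transcription factors through which cells answer interferons and cytokines of the interleukin-6 family. Expression of 9 of these factors was followed in sorted endothelial cells (ECs) of mouse lung, out of 18193 genes that the arrays measured through a probe set with 1 gene symbol. The 9 genes were chosen by name, with earlier results of these data known: Irf1, Irf2, Irf3, Irf5, Irf7, Irf8, Irf9, Stat2 and Stat3. There were 3 groups of 3 arrays, all from lungs of NSG mice. NSG mice lack mature T cells, B cells and natural killer cells and have defective myeloid cells, so all 3 groups share this limit as a model. ECs were gated as CD31-positive cells without leukocyte, epithelial, fibroblast or cancer cell markers. In the metastatic DC101 group, mice carried lung metastases of MDA-MB-231-LM2 cells injected into a vein 3 weeks before, and received DC101, a rat antibody that blocks VEGFR2, at 40 mg per kg on days 21 and 24, with harvest on day 25. In the metastatic IgG group, mice with the same metastases received control IgG on the same days. In the healthy IgG group, mice without cancer cells received rat control IgG. All mice were female and 6 to 12 weeks of age per the study's methods, which give no age for each group. MDA-MB-231-LM2 cells are a human breast cancer line selected for growth in lung. Arrays are labelled as biological replicates, but nothing says that each came from a separate mouse, so p-values below cover only the spread between these samples.

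When an interferon binds its receptor, the kinases JAK1 and TYK2, or JAK1 and JAK2, phosphorylate STAT proteins. For type I interferons STAT2 joins a further STAT protein and IRF9 to form the complex ISGF3, which binds the interferon-stimulated response element (ISRE) of antiviral genes. IRF3 and IRF7 act on the other side of the loop: sensors of nucleic acids lead to their phosphorylation, and they then turn on the genes of the interferons themselves. Irf7 is also a target of ISGF3, which makes it the amplifying member. IRF1 is induced by interferon gamma through the gamma-activated sequence (GAS) and drives antigen presentation and chemokine genes. IRF2 can compete with IRF1 for the same sites, IRF5 acts below Toll-like receptors, and IRF8 is best known from myeloid cells, where it works with PU.1. STAT3 carries signals of receptors that share the subunit gp130. In ECs some of these factors take part in the control of chemokines and other inflammatory genes. Much of this control lies in phosphorylation and movement to the nucleus, which expression arrays do not measure.

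The stretches before the start sites of 5 of these genes are shown. Irf7 and Irf1 were taken because the differences below fall on them. The stretches of the other 3 hold letters that match an ISRE core or a GAS. They were taken from RefSeq on the mouse build GRCm38.p6 and are written in the direction of the gene, with matches to the ISRE core GAAANNGAAA or to the GAS TTCNNNGAA in capitals. Both motifs were searched on both strands, and no match overlapped another. For Irf7 the bases run from 250 to 76 before the start of the window (chr7:141266500-141266674, minus strand), since the gene record reaches beyond that start. For Irf1 they are the 150 bases before the start (chr11:53769864-53770013, plus strand). The Stat2 stretch (chr10:128270266-128270295, plus strand) holds an ISRE core as its reverse complement and lies within the annotated gene Apof. The Irf2 stretch (chr8:46739495-46739540, plus strand) holds both motifs, and its first 21 bases lie in the non-coding RNA gene Gm16675. The Irf8 stretch (chr8:120736177-120736224, plus strand) holds 2 GAS matches.
Irf7: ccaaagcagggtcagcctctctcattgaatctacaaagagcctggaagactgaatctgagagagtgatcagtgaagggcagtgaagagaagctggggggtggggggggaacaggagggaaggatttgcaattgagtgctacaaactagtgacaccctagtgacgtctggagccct
Irf1: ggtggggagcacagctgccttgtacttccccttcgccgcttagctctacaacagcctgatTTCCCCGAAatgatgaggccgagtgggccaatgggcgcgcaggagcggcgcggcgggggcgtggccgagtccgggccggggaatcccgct
Stat2: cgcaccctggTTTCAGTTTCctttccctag
Irf2: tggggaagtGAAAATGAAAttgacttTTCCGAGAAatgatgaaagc
Irf8: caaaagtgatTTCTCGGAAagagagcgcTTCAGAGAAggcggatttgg

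All 9 genes had a promoter window of 250 bases before to 50 after the start. The ISRE core was found in 2 of the 9 windows, Irf2 and Stat2, and in 3.99% of the windows of all 27025 genes. The GAS was found in 3 of the 9, Irf1, Irf2 and Irf8, and in 9.55% of all genes. Irf7 held no match to either motif in its window. Of the target genes described below, 10 of 24 type I interferon targets with a window held the ISRE core (41.7%), as did 8 of 17 IRF1 and interferon gamma targets (47.1%) and 1 of 20 genes around gp130 and STAT3 (5%). The GAS was held by 6 of these 24 type I interferon targets (25%), 4 of the 17 IRF1 and interferon gamma targets (23.5%) and 1 of the 20 genes around gp130 and STAT3 (5%). Differences between these shares were not tested. These matches are descriptions of letters in a short window and name no bound factor.

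The identity of the sorted cells was checked first. Pecam1, which encodes the CD31 used for sorting, averaged 14.16 in metastatic DC101, 14.13 in metastatic IgG and 14.12 in healthy IgG on the log2 scale of the table. Cdh5 averaged 14.07, 14.04 and 14.03 and Kdr 13.66, 13.76 and 13.80 in these groups, in the same order. The mean over 16 endothelial markers lay between 13.36 and 13.52 in all 9 arrays. Single markers differed more: in metastatic IgG over healthy IgG 1 of the 16 was called, as higher. The arrays of these 2 groups did not overlap for 9 of the 16 (2 higher, 7 lower), against 27.6% of all genes. Over all genes, replicate arrays correlated at 0.983 to 0.987 in metastatic DC101 and at 0.988 to 0.991 in the other groups. Markers of other cells moved between groups. In metastatic IgG over healthy IgG, 3.93% of all genes were called as higher and 2.6% as lower by limma. Of 19 macrophage and monocyte markers, C1qa, C1qb, C1qc and Mrc1 were higher and Spi1 lower in metastatic IgG than in healthy IgG, of which all but Spi1 are named after their values were seen. The summed linear level of the 19 overlapped between groups, at 10800 to 14600 in metastatic DC101, 11700 to 13300 in metastatic IgG and 12400 to 14000 in healthy IgG. Their defining genes did not pass the test in that comparison. Ptprc, which encodes CD45, had a log2 change of -0.68 (adjusted p = 0.0614 by limma), Itgam -0.11, Csf1r -0.10, Adgre1 0.28 and Lyz2 -0.40. Of 11 lung epithelial markers 6 were lower, with sums of 13600 to 24900 in metastatic DC101, 12000 to 14600 in metastatic IgG and 23400 to 29600 in healthy IgG. Of 11 fibroblast and mural markers 3 were higher and 1 was lower, with sums of 26300 to 33200 in metastatic DC101, 20700 to 32100 in metastatic IgG and 14700 to 18800 in healthy IgG. Of 11 dendritic cell markers 2 were lower in metastatic IgG than in healthy IgG, Itgax, which encodes CD11c (log2 change -0.69, adjusted p = 0.0162), and Siglech, a marker of plasmacytoid dendritic cells (-0.60, adjusted p = 0.012), both named after their values were seen. Their sums were 3590 to 4330 in metastatic DC101, 3890 to 4440 in metastatic IgG and 4250 to 4950 in healthy IgG. Of 9 neutrophil markers none was called, with sums of 1780 to 2460 in metastatic DC101, 1990 to 2730 in metastatic IgG and 1550 to 1920 in healthy IgG, so metastatic IgG did not overlap healthy IgG. Of 8 lymphocyte markers none was called. Their sums were 1000 to 1100 in metastatic DC101, 1020 to 1030 in metastatic IgG and 1060 to 1210 in healthy IgG. Metastatic IgG did not overlap healthy IgG here either. The mean log2 value of these 8 markers was 6.85 to 7.07 over the 9 arrays. The mean 25th percentile of the arrays was 7.08, so these are dim readings that cannot show a change of lymphocytes. The difference between the 3-prime and 5-prime Gapdh control probe sets was 0.49, 0.60 and 0.35 in metastatic DC101, 0.56, 0.47 and 0.57 in metastatic IgG and 0.74, 0.77 and 0.69 in healthy IgG, so this sign of RNA quality also moved with metastasis. The part of these differences in the results below was not tested. In bulk samples, fewer cells of a type and less RNA per cell cannot be told apart.

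Metastasis was accompanied by a rise of Irf7 and a fall of Irf1 in lung ECs under control IgG, while the other 7 genes did not pass the test. Irf7 was 3.85-fold higher in metastatic IgG than in healthy IgG, and Irf1 stood at 0.716 times its healthy level. Under DC101 the same 2 genes differed from healthy lungs in the same directions. None of the 9 genes passed the test between DC101 and IgG in metastatic lungs.

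**Figure D1:**
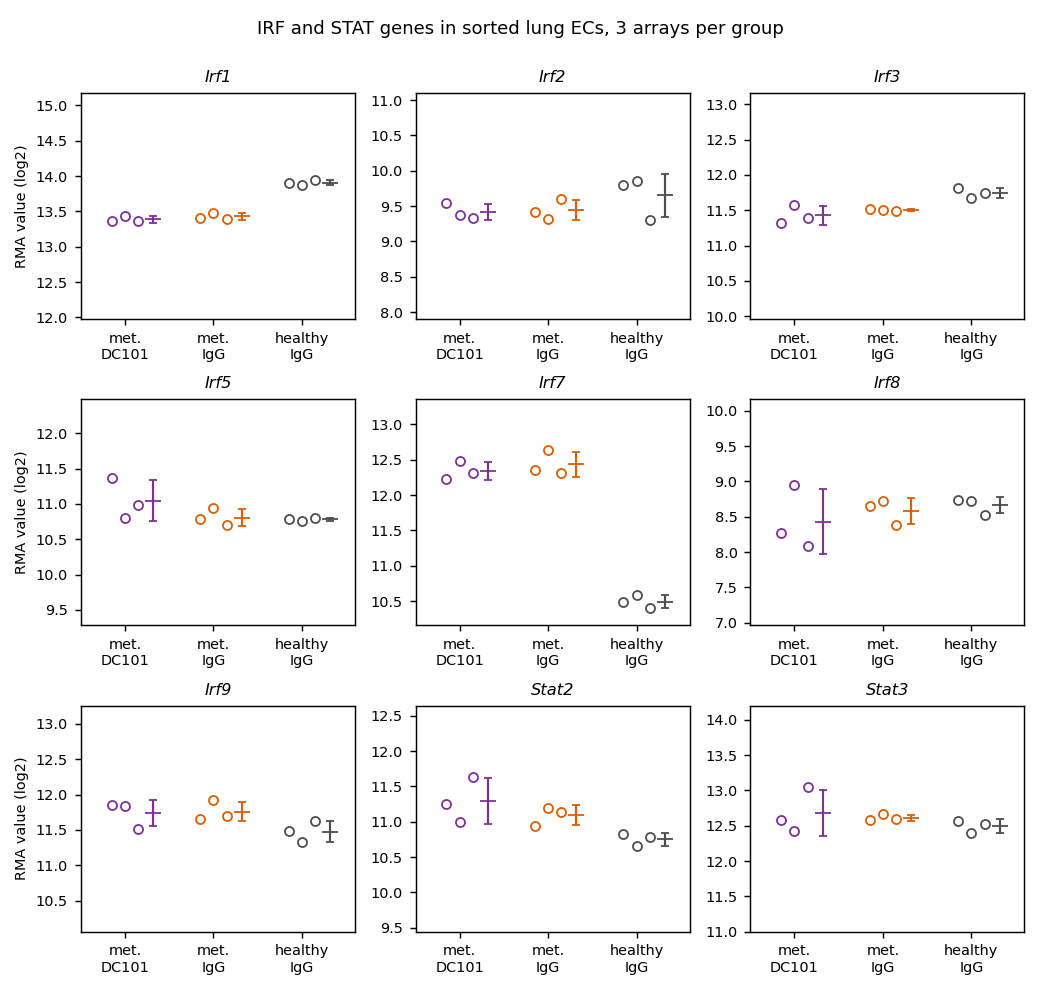
Values of the 9 genes in each array (open circles) on the log2 scale of the table, with the mean and SD of each group of 3 arrays beside them (cross bar and error bar). Groups run from metastatic DC101 (left) over metastatic IgG to healthy IgG (right), and each panel spans the same range of log2 units around its own centre. Irf7 lies at 12.23 to 12.64 in the 6 metastatic arrays and at 10.40 to 10.59 in the 3 healthy arrays, and Irf1 lies lower in all 6 metastatic arrays than in any healthy array.

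Irf7 (chr7:141263183-141266499, GRCm38.p6) stood at 12.23, 12.48 and 12.32 in the metastatic DC101 arrays, at 12.36, 12.64 and 12.31 in the metastatic IgG arrays and at 10.49, 10.59 and 10.40 in the healthy IgG arrays. The 6 metastatic arrays lay far above the 3 healthy ones, and the metastatic groups overlapped each other. Its log2 change was 1.95 (SE 0.12, 95% interval 1.67 to 2.22, adjusted p = 0.000473) for metastatic IgG over healthy IgG by limma with Benjamini-Hochberg adjustment over 18193 genes. In that comparison 6.53% of all genes were called, 3.93% as higher and 2.6% as lower. Irf7 ranked 101st by size among the 715 genes called as higher. For metastatic DC101 over healthy IgG its log2 change was 1.85 (SE 0.11, adjusted p = 0.000884), and it ranked 75th of 288 genes called as higher there. The call was kept in all 14 alternative analyses of both comparisons, with adjusted p of up to 0.0243 and 0.0488. Irf7 belongs to an inflammation signature that the study chose on week 3 arrays of the same model, so its direction here is not independent evidence.

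Irf1 (chr11:53770014-53778374, GRCm38.p6) stood at 13.36, 13.44 and 13.36 in metastatic DC101, at 13.41, 13.48 and 13.40 in metastatic IgG and at 13.91, 13.87 and 13.95 in healthy IgG. It varied little within groups, with an SD of 0.04 to 0.05 (n = 3 each), and the healthy arrays did not overlap either metastatic group. Its log2 change was -0.48 (SE 0.08, 95% interval -0.68 to -0.29, adjusted p = 0.0189) for metastatic IgG over healthy IgG. For metastatic DC101 over healthy IgG it was -0.52 (SE 0.10, adjusted p = 0.0386). By size it ranked 402nd of 473 genes called as lower in metastatic IgG over healthy IgG and 150th of 152 in metastatic DC101 over healthy IgG. Its call was lost in most fits that left out 1 array. The call for metastatic IgG over healthy IgG was lost when any 1 of the 3 healthy arrays, or else replicate 1 or 3 of metastatic IgG, was left out (adjusted p = 0.0537 to 0.0655), and was kept without metastatic IgG replicate 2 (adjusted p = 0.0465). The call for metastatic DC101 over healthy IgG was lost without any 1 of the 6 arrays (adjusted p = 0.0747 to 0.139). The log2 change itself ranged only between -0.46 and -0.51 and between -0.51 and -0.55 in these fits. Calls over all genes also fell with fewer arrays, to 556 to 759 in place of 1188 for metastatic IgG over healthy IgG.

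Irf3, the constitutively expressed sensor-activated factor, had values of 11.32, 11.58 and 11.39 in metastatic DC101, 11.52, 11.50 and 11.49 in metastatic IgG and 11.82, 11.68 and 11.74 in healthy IgG. Both metastatic groups lay below the healthy arrays without overlap. The log2 changes of -0.25 (SE 0.08, adjusted p = 0.146) for metastatic IgG over healthy IgG and -0.32 (SE 0.11, adjusted p = 0.209) for metastatic DC101 over healthy IgG did not pass the test.

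Irf9 and Stat2, the members of ISGF3 among these genes, had positive changes that did not pass the test. Irf9 stood at 11.85, 11.84 and 11.52 in metastatic DC101, 11.66, 11.92 and 11.70 in metastatic IgG and 11.48, 11.33 and 11.62 in healthy IgG. Its metastatic IgG arrays lay just above the healthy ones, while DC101 replicate 3 fell among them. The log2 change was 0.28 (SE 0.12, adjusted p = 0.229) for metastatic IgG over healthy IgG and 0.26 (SE 0.14, adjusted p = 0.396) for metastatic DC101 over healthy IgG. Stat2 had values of 11.25, 10.99 and 11.63 in metastatic DC101, 10.94, 11.20 and 11.14 in metastatic IgG and 10.82, 10.65 and 10.79 in healthy IgG. All metastatic arrays exceeded all healthy arrays, and DC101 replicate 3 was the highest. The log2 change was 0.34 (SE 0.11, adjusted p = 0.119) for metastatic IgG over healthy IgG and 0.54 (SE 0.17, adjusted p = 0.169) for metastatic DC101 over healthy IgG.

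Irf5, the factor below Toll-like receptors, had values of 11.36, 10.80 and 10.98 in metastatic DC101, 10.78, 10.94 and 10.70 in metastatic IgG and 10.78, 10.76 and 10.80 in healthy IgG. DC101 replicate 1 stood apart from the other 8 arrays. The log2 change was 0.02 (95% interval -0.20 to 0.25) for metastatic IgG over healthy IgG and 0.27 (-0.09 to 0.63) for metastatic DC101 over healthy IgG. Without DC101 replicate 1 the change under DC101 was 0.11. Irf2, the counterpart of IRF1, stood at 9.54, 9.37 and 9.33 in metastatic DC101, 9.41, 9.32 and 9.60 in metastatic IgG and 9.80, 9.85 and 9.30 in healthy IgG. Healthy replicate 3 was the lowest of all 9 arrays and the other healthy arrays were the highest, so the groups overlapped. The changes of Irf2 against healthy IgG were -0.21 (95% interval -0.60 to 0.18) for metastatic IgG and -0.24 (-0.63 to 0.15) for metastatic DC101. Healthy arrays set their size: the changes were -0.38 for metastatic IgG and -0.41 for metastatic DC101 without healthy replicate 3, and -0.11 and -0.14 without healthy replicate 2.

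Irf8, the myeloid member, was measured near the array medians of 8.32 to 8.33, and the table has no call of presence. It stood at 8.27, 8.95 and 8.08 in metastatic DC101, 8.66, 8.72 and 8.38 in metastatic IgG and 8.74, 8.72 and 8.53 in healthy IgG. DC101 arrays spread on both sides of all others. The changes against healthy IgG were -0.08 (95% interval -0.36 to 0.21) for metastatic IgG and -0.23 (-0.74 to 0.29) for metastatic DC101. The change under DC101 was -0.48 without DC101 replicate 2 and -0.05 without DC101 replicate 3. Spi1, which encodes its partner PU.1, averaged 7.86 in metastatic DC101, 8.12 in metastatic IgG and 8.87 in healthy IgG, with called log2 changes of -1.01 and -0.75 of DC101 and IgG against healthy IgG (adjusted p = 0.00534 and 0.0204). Without any 1 of the healthy arrays, or without metastatic IgG replicate 2, the call of Spi1 under IgG was lost (adjusted p = 0.0575 to 0.062).

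Stat3 had values of 12.58, 12.42 and 13.05 in metastatic DC101, 12.58, 12.66 and 12.60 in metastatic IgG and 12.57, 12.39 and 12.53 in healthy IgG. The metastatic IgG arrays lay above the healthy ones by as little as 0.01 on this scale, and DC101 replicate 3 was higher than any other array. The log2 change was 0.11 (95% interval -0.10 to 0.33) for metastatic IgG over healthy IgG and 0.19 (-0.21 to 0.58) for metastatic DC101 over healthy IgG. The change under DC101 was 0.32 without DC101 replicate 2 and 0.00 without DC101 replicate 3, and that under IgG was 0.06 without healthy replicate 2.

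Of the 9 genes 2 were called in metastatic IgG over healthy IgG, 1 in each direction, where 6.53% of all genes were called, and 5 of the 9 had an unadjusted p under 0.05, as did 3873 of all 18193 genes. The arrays of these groups did not overlap for 6 of the 9 genes (4 higher, 2 lower), against 27.6% of all genes. In metastatic DC101 over healthy IgG 2 of 9 were called, against 2.42% of all genes (1.58% higher and 0.835% lower), and 4 of 9 did not overlap, against 23.1%. An unadjusted p under 0.05 was reached there by 4 of the 9 and by 3088 of all genes. The median log2 change of the 9 genes was 0.02 in metastatic IgG over healthy IgG and 0.19 in metastatic DC101 over healthy IgG, and that of all genes was -0.02 and -0.04. The comparisons of DC101 and of IgG with healthy lungs share the 3 healthy arrays.

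**Figure D2:**
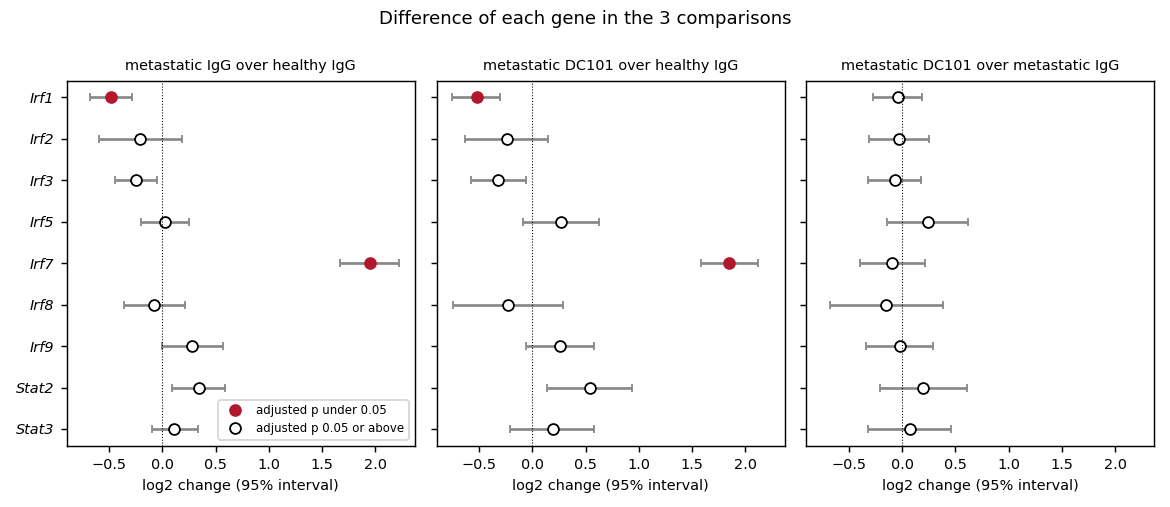
Log2 change of each of the 9 genes with its 95% interval in metastatic IgG over healthy IgG (left), metastatic DC101 over healthy IgG (middle) and metastatic DC101 over metastatic IgG (right). Filled red points passed an adjusted p of 0.05 by limma: Irf7 at 1.95 and 1.85 and Irf1 at -0.48 and -0.52, and no point in the right panel.

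The next comparison addressed the effect of VEGFR2 blockade in lungs with metastases, and none of the 9 genes was called. Between metastatic DC101 and metastatic IgG 0 of 9 genes were called by limma (adjusted p = 0.806 to 0.979), against 0% of all genes, and 0 of the 9 had an unadjusted p under 0.05, where 1209 of 18193 genes did. The groups overlapped for all 9 on the probe set that stands for each gene, and 12.4% of all genes did not overlap. For Irf7 the log2 change was -0.10 (95% interval -0.40 to 0.21), so a difference in either direction of the size seen with metastasis lay outside the interval. For Irf1 it was -0.04 (95% interval -0.27 to 0.19). On these probe sets the largest changes were 0.24 for Irf5 (95% interval -0.14 to 0.62) and 0.20 for Stat2 (-0.21 to 0.61). A further probe set of Irf3, given below, had a larger change. The interval was widest for Irf8, from -0.68 to 0.38. Single arrays set several of these values: without DC101 replicate 1 the change of Irf5 was 0.08, and without DC101 replicate 3 that of Stat2 was 0.03 and that of Stat3 was -0.11, against 0.07 with it.

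Several of these genes were measured by more than 1 probe set, 18 in all. Irf1, Irf2, Irf7 and Irf9 had 1 each, so their values have no further reading on the array. The suffixes _a, _s and _x of some probe sets mark those that can match several transcripts of a gene or of several genes, and these 4 genes had no others. Adjusted over all named probe sets, Irf1 was called in metastatic IgG over healthy IgG (adjusted p = 0.0313) and not in metastatic DC101 over healthy IgG (adjusted p = 0.0694), while Irf7 was called in both (adjusted p = 0.00112 and 0.00229). The 4 probe sets of Irf3 had log2 changes of -0.26, -0.25, -0.06 and -0.70 in metastatic IgG over healthy IgG. Probe set 1438721_a_at, with -0.70 (SE 0.14), passed the test over all named probe sets (adjusted p = 0.0381) with 9.98, 9.81 and 10.58 in metastatic DC101, 10.13, 9.70 and 9.82 in metastatic IgG and 10.56, 10.49 and 10.71 in healthy IgG. The other 3 did not pass. In metastatic DC101 over metastatic IgG, Irf3 probe set 1435271_at had a log2 change of -0.42 (SE 0.13, adjusted p = 0.801 by limma). It stood at 9.66, 9.52 and 9.65 in metastatic DC101 and at 9.92, 9.93 and 10.23 in metastatic IgG, without overlap. The changes of the other Irf3 probe sets there were -0.16, -0.07 and 0.24. Stat3 was split: 1459961_a_at had a log2 change of -0.42 (adjusted p = 0.178) and 1460700_at one of 0.28 (adjusted p = 0.158), with 0.11 and -0.02 for the others. Stat2 was positive on both of its probe sets, at 0.34 and 0.21 in metastatic IgG over healthy IgG and at 0.54 and 0.47 in metastatic DC101 over healthy IgG.

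**Figure D3:**
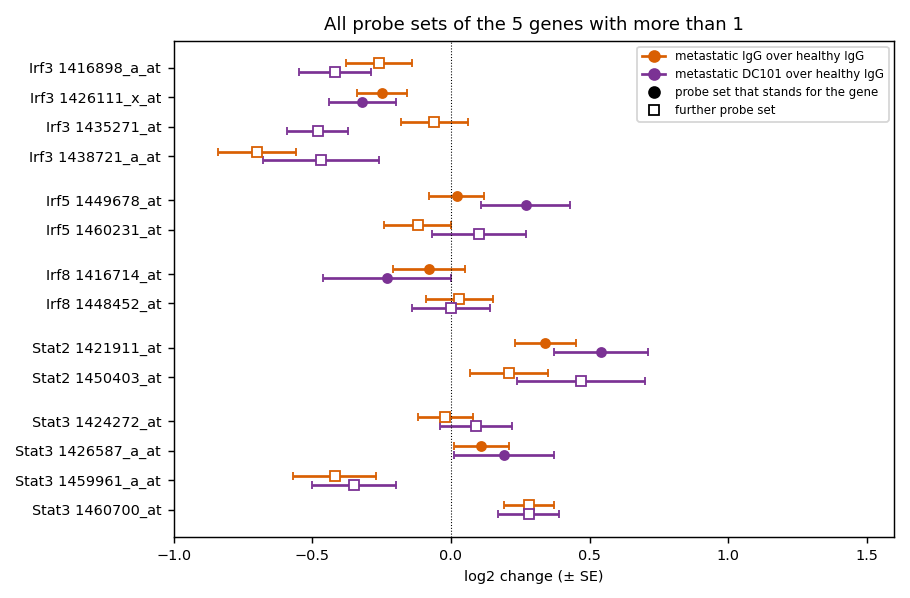
Log2 change with its SE for every probe set of the 5 genes that have more than 1, in metastatic IgG over healthy IgG (orange) and metastatic DC101 over healthy IgG (purple). Filled circles mark the probe set that stands for the gene and open squares the others: the probe sets of Irf3 all lie below 0, those of Stat2 above it, and those of Stat3 on both sides.

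The genes upstream of these factors were described next, from lists of ligands, receptors, sensors and inhibitors. Of 9 measured interferon genes (17 listed) none was called in any comparison by limma. Their log2 changes for metastatic IgG over healthy IgG lay between -0.13 and 0.18. The group means of Ifnb1, Ifng, Ifna2, Ifna4 and Ifna11 lay below 7.08, the mean 25th percentile of the arrays. Those of Ifna1, Ifna5, Ifna9 and Ifnz lay above it. Readings this dim, in sorted ECs only, can miss a change of interferon expression. Of 9 receptors and kinases none was called in the 3 comparisons. Jak1, which serves all interferon receptors, had a log2 change of 0.32 (adjusted p = 0.108), Jak2 0.20, Ifnar1 0.24, Ifnar2 0.07, Ifngr1 0.25 and Tyk2 -0.26 in metastatic IgG over healthy IgG. The arrays of these groups did not overlap for 7 of the 9 receptors and kinases (6 higher, and Tyk2 lower), against 27.6% of all genes.

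Of 19 sensors and kinases that lead to IRF3, IRF5 or IRF7, 4 rose in metastatic IgG against healthy IgG and none fell, where 3.93% of all genes rose and 2.6% fell. They were Zbp1, a sensor of Z-form nucleic acid (2.22, SE 0.11, adjusted p = 0.000262), Sting1, the adaptor of cytosolic DNA sensing (1.70, SE 0.11, adjusted p = 0.0005), Ddx58, which encodes the RNA sensor RIG-I (0.76, adjusted p = 0.00515), and Dhx58, its relative LGP2 (0.90, adjusted p = 0.048). The call of Dhx58 was lost in each fit that left out healthy replicate 2 or 3 or any metastatic IgG array (adjusted p = 0.113 to 0.131). Zbp1 and Ddx58 were also called in metastatic DC101 over healthy IgG (1.85 and 0.97), Ddx58 not without healthy replicate 1 (adjusted p = 0.0543). All 4 are themselves known as interferon-induced genes.

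Among 23 feedback inhibitors and cofactors 1 rose and 3 fell in metastatic IgG against healthy IgG, again beside 3.93% and 2.6% of all genes. Usp18, which blocks the type I interferon receptor, stood at 11.48 in metastatic DC101, 11.67 in metastatic IgG and 9.59 in healthy IgG, with log2 changes of 1.89 and 2.07 of DC101 and IgG against healthy IgG (adjusted p = 0.00192 and 0.000215). Cish, an inhibitor of STAT5 signalling, and Pias3, which was named for its inhibition of STAT3, fell by 0.59 and 0.46 on the log2 scale in metastatic IgG (adjusted p = 0.0166 and 0.0471). The third that fell was Spi1, given above. Without any 1 array the call of Pias3 was lost (adjusted p = 0.0574 to 0.14), and that of Cish was lost without healthy replicate 1 or any 1 metastatic IgG array (adjusted p = 0.0534 to 0.0568). The count of called genes in this list was 1 to 3 when 1 array was left out, in place of 4, namely 1 when healthy replicate 1 or metastatic IgG replicate 2 was absent and 2 when healthy replicate 2, metastatic IgG replicate 1 or metastatic IgG replicate 3 was absent. Socs1 and Socs3, the classical inhibitors of JAK kinases, had log2 changes of -0.52 (adjusted p = 0.214) and 0.01 (adjusted p = 0.968). Of the 5 other measured IRF and STAT genes, Irf4, Stat4, Stat5a, Stat5b and Stat6, none was called in any comparison.

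**Figure D4:**
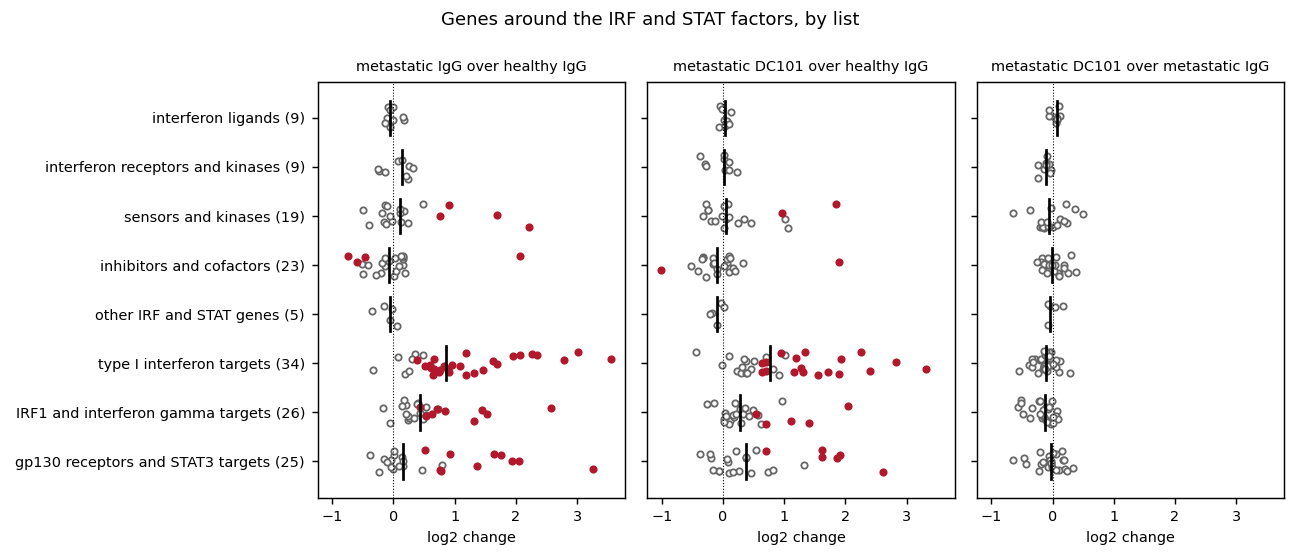
Log2 changes of the genes in 8 lists around the IRF and STAT factors, with the number of measured genes in parentheses, for metastatic IgG over healthy IgG (left), metastatic DC101 over healthy IgG (middle) and metastatic DC101 over metastatic IgG (right). Red points passed the test, open points did not, black bars are list medians, and vertical position within a row is arbitrary: the median of the type I interferon targets is 0.86 in the left and 0.76 in the middle panel, and no point is red in the right panel.

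Downstream, 27 of 34 measured type I interferon targets of ISGF3 rose in metastatic IgG against healthy IgG and none fell, beside the same shares of all genes. Usp18, Dhx58, Ifi35 and Ifih1, of which Ifih1 encodes the RNA sensor MDA5, stand in this list as well as in those above, and Ifi35 and Ifih1 were not called in any comparison. The median log2 change was 0.86, with -0.02 over all genes. Rsad2, which encodes the antiviral enzyme viperin, was 11.8-fold higher, the antiviral GTPase Mx1 8.12-fold, Ifit2, which binds viral RNA, 6.86-fold, Ifi27l2a 5.08-fold and Oas2, which makes the activator of RNase L, 4.77-fold. In metastatic DC101 against healthy IgG 18 of 34 rose and none fell, with a median of 0.76, where 1.58% of all genes rose and 0.835% fell. The log2 changes there were 3.32 for Rsad2, 2.82 for Mx1, 2.40 for Ifit2, 2.26 for Ifi27l2a and 1.93 for Ifit3. The count was 18 without metastatic IgG replicate 2 or 3, and under DC101 it was 10 without healthy replicate 1.

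Of 26 measured targets of IRF1 and interferon gamma, 9 rose in metastatic IgG against healthy IgG and none fell. Of all genes 3.93% rose and 2.6% fell. Irf1 itself was lower, and the part of IRF1 in the changes of this list was not tested. Nor was the part of interferon gamma or of type I interferons, and 8 of the 17 genes with a window held the ISRE core. The list median was 0.43, with -0.02 over all genes. The chemokine genes Cxcl10 and Cxcl9 had log2 changes of 2.57 and 1.53, Cd274, which encodes PD-L1, 1.44, Nlrc5, the activator of MHC class I genes, 1.31 and the GTPase gene Igtp 0.84 (adjusted p = 0.000718 to 0.0176). The call of Igtp was lost without metastatic IgG replicate 2 or 3 (adjusted p = 0.0601 and 0.0641), and the count was 5 in each of these fits. In metastatic DC101 against healthy IgG 5 rose, Cxcl10 (2.05), Nlrc5 (1.40), Cd274 (1.11), Igtp (0.70) and Tap1 (0.54), the peptide transporter of MHC class I. This count of 5 was 0 to 3 without any 1 array, with 0 without healthy replicate 2, 1 without healthy replicate 1, 2 without DC101 replicate 1 or 2 and 3 without healthy replicate 3 or DC101 replicate 3. Calls were lost for Igtp and Tap1 without any 1 array, for Cxcl10 and Nlrc5 without healthy replicate 1 or 2, and for Cd274 without healthy replicate 2 or DC101 replicate 1 or 2 (adjusted p = 0.0557 to 0.129 over these fits). In metastatic DC101 against healthy IgG the list median was 0.28, with -0.04 over all genes, of which 1.58% rose.

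Of 25 measured gp130 receptors, ligands and STAT3 targets 10 rose in metastatic IgG against healthy IgG and none fell. Of all genes 3.93% rose and 2.6% fell. Stat3 and Socs3 did not pass the test. The list median was 0.15, with -0.02 over all genes. The called genes with the largest changes were Birc5, which encodes the survival and mitosis protein survivin, with a log2 change of 3.26, the growth regulator Myc with 2.05, Lrg1, a secreted glycoprotein that acts on vessels, with 1.93, the protease inhibitor Timp1 with 1.76 and the acute-phase gene Saa3 with 1.65 (adjusted p = 0.000486 to 0.0114). Without metastatic IgG replicate 3 the call of Saa3 was lost (adjusted p = 0.0506) and 6 genes were called. In metastatic DC101 against healthy IgG 6 rose, where 1.58% of all genes did. Among the 6 were Birc5 (2.62), Timp1 (1.91), Lrg1 (1.87), Myc (1.62) and Saa3 (1.61). The count was 3 without healthy replicate 1 or DC101 replicate 2. Calls under DC101 were lost for Birc5 without healthy replicate 1 or 3 or DC101 replicate 2 (adjusted p = 0.0503 to 0.0703) and for Saa3 without healthy replicate 1 or 2 or DC101 replicate 2 (adjusted p = 0.0625 to 0.083).

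Between metastatic DC101 and metastatic IgG none of the genes in any of the 8 lists was called. The median log2 change was -0.10 for the type I interferon targets, -0.12 for the IRF1 and interferon gamma targets and -0.03 for the gp130 and STAT3 list, with -0.02 over all genes.

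The genes most like each member over the 9 arrays were found by the root mean square difference of profiles, each centred on its own mean. The nearest to Irf7 were Ifit3, an interferon-induced antiviral gene (0.123), Synpo, which encodes an actin-binding protein (0.125), and Inhbb, a subunit of activin B (0.139). Ifit3 had the same log2 change as Irf7, 1.95, in metastatic IgG over healthy IgG. The study picked Inhbb among genes induced in week 3 metastatic ECs of the same model, so its likeness to Irf7 is not independent evidence. Nearest to Irf1 were Ppdpf (0.0512), the stress-response phosphatase subunit Ppp1r15a (0.0621) and Jup, the junction protein plakoglobin (0.0627), with log2 changes of -0.50, -0.44 and -0.50. Stat2 was nearest to Obox2, Flt4, which encodes VEGFR3, and Angptl7, and Irf9 to Med14, Il15 and Myb, at distances of 0.0682 to 0.0932. Obox2 and Myb were dim, with group means of 6.33 to 6.73 and of 6.93 to 7.25. Irf5 was nearest to Riok3, Ccny and Trp63 and Irf8 to Ccdc43, Irak1 and Ttc13, at 0.0371 to 0.088. These neighbours are descriptions over 9 arrays of 3 groups.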

How the data were processed

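ECs were sorted by flow cytometry on CD31, with CD45, CD11b, EpCAM, CD140a/b and GFP as negative markers, and their amplified RNA was hybridised to Affymetrix mouse genome arrays. The deposited values are log2 expression values, 1 column per array, which the authors made by robust multiarray averaging (RMA) in Chipster. The log base is not given with the values and was taken from RMA, which works in log2. RMA equalises the arrays, which hides any shift of total RNA, and it understates changes of dim probe sets.

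Of 45101 probe sets, 34945 had 1 gene symbol in the platform annotation, 932 had several, 9160 were not named and 64 were controls. RefSeq GRCm38.p6 held the genes of 34741. Each gene was represented by its probe set of highest mean in all 9 arrays, and dim genes were kept. Each comparison was fitted on its own 6 arrays by the moderated linear model of limma 3.58.1 (R 4.3.3), two-sided, with Benjamini-Hochberg adjustment over 18193 genes and a call at adjusted p under 0.05. Standard errors are limma's moderated ones. The fit was tested on simulated data.

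The 9 genes, the lists and the tests were chosen with earlier results of these data known. Named are all 9 genes, up to 5 called genes per list and comparison by size of change, a fixed set of receptors, kinases and inhibitors, defining markers, and the 3 nearest profiles of 6 members. Alternatives were 1 fit of all arrays, a replicate block, no variance moderation, a trended robust prior, other rules for probe sets, bright genes only, median centring and leaving out each array. Proteins were not analysed here.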

Additional observations from a re-analysis of the deposited data

How the results depend on the processing

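The 9 genes gave 390 values under the alternatives, of which 356 kept direction and side of the threshold, 15 lost a call (all of Irf1), 1 gained one (Irf3, -0.70 with the probe set of largest SD in metastatic IgG over healthy IgG, adjusted p = 0.0417) and 18 turned sign, none of them called. The 356 include values of results that were not called in the main fit, where no call could be lost. Irf7 was called against healthy IgG in every alternative that measured it. Irf1 kept its call in 8 of 14 alternatives for metastatic IgG over healthy IgG and in 5 of 14 for metastatic DC101 over healthy IgG. Leaving out _a, _s and _x probe sets removes Irf1, Irf2, Irf7 and Irf9, and keeping bright genes only removes Irf8.

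For metastatic IgG over healthy IgG, 2 of the 9 genes were called, 1 with the replicate block and 0 without _a, _s and _x probe sets. Of all genes 1188 were called, 689 with the replicate block and 376 without variance moderation. Receptors and kinases had 1 call with the trended robust prior and with the mean of all probe sets, in place of 0. Inhibitors and cofactors had 2 calls with the block and 1 without moderation, in place of 4. Without moderation 14 type I interferon targets, 3 IRF1 and interferon gamma targets and 5 genes of the gp130 and STAT3 list were called, in place of 27, 9 and 10. The block left 5 IRF1 and interferon gamma targets, and 6 of the gp130 and STAT3 list were called without _a, _s and _x probe sets. Over fits that left out 1 array the counts were 1 to 2 of the 9 genes, 556 to 759 of all genes, 1 to 3 inhibitors and cofactors, 5 to 6 IRF1 and interferon gamma targets and 6 to 8 of the gp130 and STAT3 list.

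For metastatic DC101 over healthy IgG, 2 of the 9 genes were called, 1 with the replicate block, without moderation or with the probe set of largest SD, and 0 without _a, _s and _x probe sets. Of all genes 440 were called, 662 with all 9 arrays in 1 fit, 247 with the block, 14 without moderation and 273 with the probe set of largest SD. Without moderation 0 sensors, 0 inhibitors, 1 type I interferon target, 0 IRF1 and interferon gamma targets and 0 of the gp130 and STAT3 list were called, in place of 2, 2, 18, 5 and 6. With the probe set of largest SD 1 sensor and 3 IRF1 and interferon gamma targets were called. The IRF1 and interferon gamma count was 8 with all 9 arrays and 3 with the block, and the gp130 and STAT3 count was 3 without _a, _s and _x probe sets. Over fits that left out 1 array the counts were 1 of the 9 genes in each, 110 to 361 of all genes, 1 to 2 sensors, 10 to 15 type I interferon targets, 0 to 3 IRF1 and interferon gamma targets and 3 to 6 of the gp130 and STAT3 list. For metastatic DC101 over metastatic IgG every count was 0 in all alternatives.

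Signs turned for small changes. In metastatic IgG over healthy IgG, Irf5 was -0.05 with the mean of all probe sets, -0.02 with median centring and -0.04 to 0.08 over fits without 1 array. Irf8 was -0.14 to 0.03 over those fits. Stat3 was -0.01 with the mean of all probe sets and -0.42 with the probe set of largest SD. Socs3 was -0.17 with the mean, -0.32 with the probe set of largest SD or without _a, _s and _x probe sets, -0.03 with median centring and -0.03 to 0.04 over fits without 1 array. In metastatic DC101 over metastatic IgG, median centring gave 0.01 for Irf1, 0.03 for Irf2 and Irf9 and 0.02 for Ifnar2. The probe set of largest SD gave 0.24 for Irf3, 0.13 for Jak1, 0.20 for Tyk2 and, as without _a, _s and _x probe sets, -0.03 for Socs3. The mean gave 0.04 for Tyk2. Without 1 array the ranges were -0.09 to 0.05 for Irf2, -0.16 to 0.00 for Irf7, -0.41 to 0.03 for Irf8, -0.08 to 0.08 for Irf9, -0.11 to 0.20 for Stat3, -0.07 to 0.29 for Socs1, -0.00 to 0.10 for Socs3, -0.09 to 0.01 for Ifnar2, -0.23 to 0.00 for Jak1 and -0.19 to 0.00 for Jak2. In metastatic DC101 over healthy IgG, Stat3 was -0.35 with the probe set of largest SD, and Socs3 was -0.15 with the mean and -0.35 with the probe set of largest SD or without _a, _s and _x probe sets. Without 1 array Ifnar1 was -0.11 to 0.15, Ifnar2 -0.01 to 0.09 and Ifngr1 -0.09 to 0.16.

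Deviations of arrays with the same replicate number correlated at -0.054 to 0.084 between groups. Arrays with different numbers were not set beside them, so whether the numbers pair the arrays was not tested. The block lost the calls of Irf1 (adjusted p = 0.0717 and 0.109 for metastatic IgG and metastatic DC101 over healthy IgG) and no other call among the 9 genes. The cause of the changes with each alternative was not tested, other than fewer arrays or fewer probe sets where these were left out. With 3 arrays per group, no call of presence and RMA values only, small changes of dim genes such as Irf8 are poorly resolved.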
